A study of Homo sapiens with 6 samples.

Results

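CD47 and 8 other checkpoint genes were followed in wild-type PANC-1 cells given conditioned medium. The 9 genes (CD47, SIRPA, CD24, CD274, PDCD1LG2, CD276, PVR, NECTIN2 and LGALS9) were taken by name from a table of 58735 genes, as a list of phagocytosis and lymphocyte checkpoints. PANC-1 is an established cell line from a human pancreatic ductal carcinoma. One group of 3 libraries (CM-MLKL) came from cells given medium from macrophages in direct co-culture with PANC-1 cells that overexpress MLKL, the protein that breaches the plasma membrane in necroptosis. The other 3 libraries (CM-Vector) came from cells given medium from macrophages co-cultured with empty-vector PANC-1 cells. The sequenced cells of both groups were wild type and carried no construct, and overexpression was confined to the cells that made the medium. The series gives a time of 72 h for both groups, which the study's methods assign to the co-culture and which the series' own wording can be read to assign to the treatment. With these libraries the study examined the consequences of macrophage extracellular traps, which the CM-MLKL medium contained. It asked separately, by western blot, whether such medium acts on the 'don't eat me' protein CD47.

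Checkpoint genes encode surface proteins by which a cell holds back the immune cells that touch it. CD47 binds SIRPα, the product of SIRPA, on macrophages, and this contact inhibits engulfment; CD24 does the same through Siglec-10. CD274 (PD-L1) and PDCD1LG2 (PD-L2) bind PD-1 on T cells. PVR (CD155) and NECTIN2 (CD112) are nectin-family adhesion proteins that bind the inhibitory receptor TIGIT and the activating receptor CD226 on T and NK cells. CD276 (B7-H3) is a B7-family protein common on solid tumours, and LGALS9 encodes galectin-9, a ligand of TIM-3.

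The promoter windows of CD47, PVR and CD274 are shown because CD47 was the checkpoint gene called, PVR shared a motif with it, and CD274 is the family's best-known interferon-responsive gene. They were taken from RefSeq (GRCh38.p14), which gave windows for 7 of the 9 genes. For CD47 the 250 bases before its RefSeq start are given (chr3:108091032-108091281, minus strand), in which GENCODE 29 annotates no exon. This stretch lies inside the longer span that GENCODE 29 gives the gene (chr3:108043094-108091862), and so is not upstream of that span. For CD274 the first 211 bases of its window are given (chr9:5450292-5450502, plus strand), up to the first annotated exon. For PVR 30 bases are given (chr19:44643818-44643847, plus strand), all of them, both NRF1 matches included, inside the 112 bases of its window that GENCODE 29 annotates as exon; only this short stretch around the matches is printed. Capitals mark the letters GCGCNNGCGC, a motif of the factor NRF1, in CD47 and PVR. In CD274 they mark 2 overlapping matches of GAAANNGAAA, an interferon regulatory factor (IRF) motif read here on the opposite strand, and 1 match of TTCNNNGAA, a STAT motif.
CD47: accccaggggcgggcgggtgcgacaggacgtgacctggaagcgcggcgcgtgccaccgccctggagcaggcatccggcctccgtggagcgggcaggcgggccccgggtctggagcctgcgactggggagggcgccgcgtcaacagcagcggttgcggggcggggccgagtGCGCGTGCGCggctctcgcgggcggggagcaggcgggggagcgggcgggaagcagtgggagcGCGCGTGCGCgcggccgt
PVR: gagacctGCGCAGGCGCAGGCGCgcgggga
CD274: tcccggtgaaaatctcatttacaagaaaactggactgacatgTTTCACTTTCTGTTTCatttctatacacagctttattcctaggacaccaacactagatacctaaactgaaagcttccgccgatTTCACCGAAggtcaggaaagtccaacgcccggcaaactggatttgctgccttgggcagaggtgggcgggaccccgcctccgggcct
The 250 bases of CD47 were 79.6% G or C, and those of CD274 were 54.8%. CD47 had its NRF1 matches 80 and 18 bases before the start, and PVR had 2 that overlapped, 85 and 79 bases before it. On both strands, NRF1 letters were in 7.16% of 35116 windows of this length, IRF letters in 3.02% and STAT letters in 6.57%. The GC box GGGCGG occurred 6 times in the CD47 window, 7 and 2 times in the 2 CD276 windows and 3 times in the NECTIN2 window. It was also in windows of CD24 and CD274, against 42.6% of all windows. The hypoxia-response letters ACGTG were in the CD47 window and in 1 of the 2 CD276 windows, against 18.5% of all windows. No member window held the NF-kB letters GGGNNTTTCC (1.73% of all windows) or the AP-1 letters TGANTCA (6.57%). The motifs were picked with the expression results known, and a match is a description of letters only.

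Library totals lay between 15838403 and 17885429 counts. CM-Vector replicate 1 stood apart on the first principal component of log2 counts-per-million (CPM) values, which held 48.6% of the variance. Over all genes tested it correlated with its own group at r = 0.922 and 0.923, against 0.988 between CM-Vector replicates 2 and 3. Calls and signs that turned without it are therefore given below, for the checkpoint genes and the named genes of the other lists only. Keratin and other markers of the line summed to 5500 to 6960 CPM with CM-MLKL and 6460 to 7570 CPM with CM-Vector. Of the 9 tested, KRT8, KRT19 and EPCAM were lower and VIM was higher in all 3 CM-MLKL libraries than in all 3 CM-Vector libraries. Over all genes tested, 5.5% were lower and 6.43% higher in this way. Of the 9 markers 0 were called (edgeR), against 0.406% of all genes tested called higher and 0.107% lower. Levels are CPM scaled by the trimmed mean of M values (TMM), and fold changes and adjusted p-values come from the edgeR quasi-likelihood test on counts with Benjamini-Hochberg adjustment over 14046 genes. A gene was called at an adjusted p under 0.05.

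CD47 rose with CM-MLKL. Its level was 209, 204 and 160 CPM in the 3 CM-MLKL libraries, against 79.8, 75.3 and 77.5 CPM in the 3 CM-Vector libraries. The groups did not overlap, and the lowest CM-MLKL library was 2.0 times the highest CM-Vector library. CD47 averaged 191 ± 27.2 CPM with CM-MLKL and 77.5 ± 2.29 CPM with CM-Vector (SD, n = 3 each), a 2.47-fold difference. The log2 fold change was 1.30 (SE 0.228, 95% interval 0.80 to 1.81, adjusted p = 0.0352, edgeR). In bulk RNA, a change in the share of cells that express a gene cannot be told apart from a change in RNA per cell. CM-Vector replicate 1, which stood apart over all genes, lay with its group for CD47. The log2 fold change kept to 1.25 to 1.42 over 15 settings, and the call was kept in 9 of them. It was lost without CM-Vector replicate 2 (adjusted p = 0.241) or 3 (0.205), without CM-MLKL replicate 1 (0.291), 2 (0.113) or 3 (0.0808), and with offsets for GC content and length (0.0690, edgeR). CD47 spans chr3:108043094-108091862 on the minus strand (GRCh38, GENCODE 29), and no other annotated gene overlaps it.

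**Figure D1:**
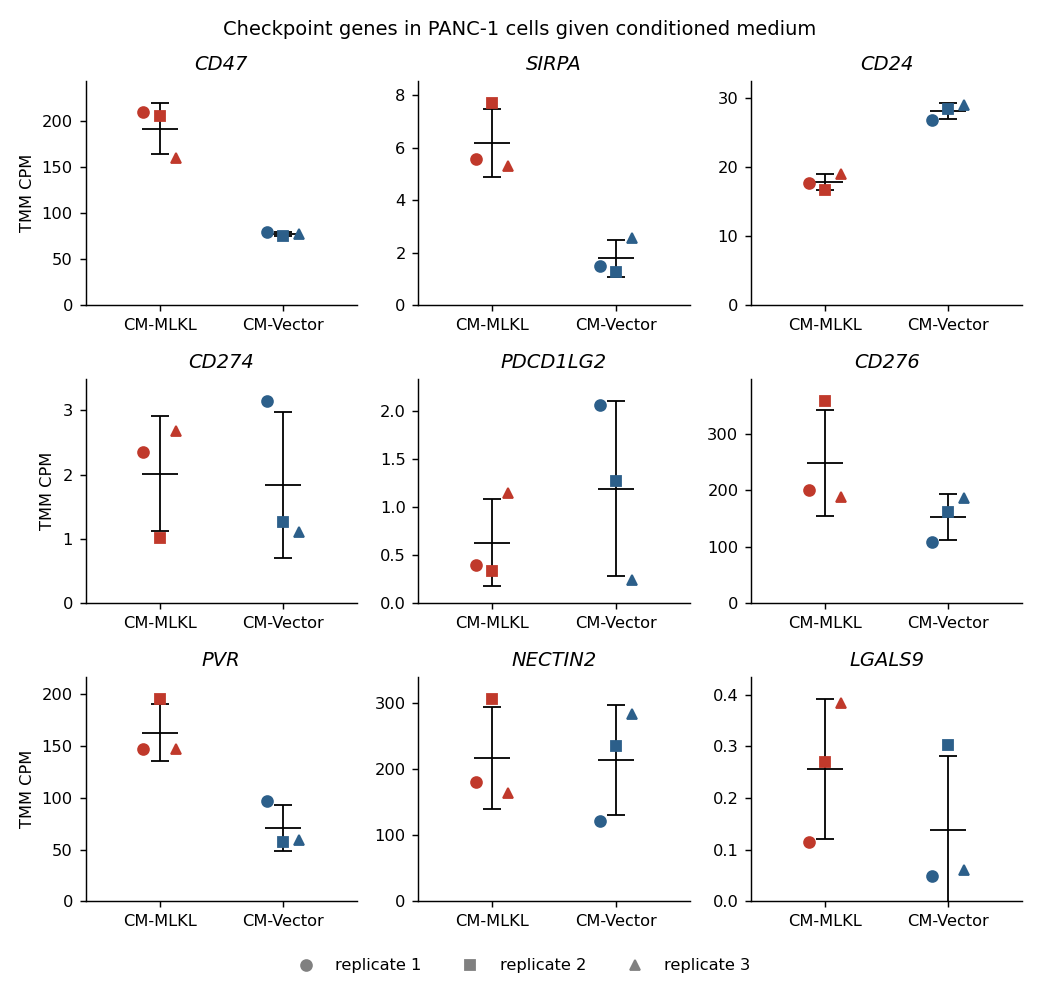
Level of each checkpoint gene in every library, in TMM-scaled counts-per-million (CPM) values on linear axes from 0, CM-MLKL left of CM-Vector. Points are libraries, horizontal marks are means and bars are SD over 3 libraries (cut at 0 for LGALS9); CD47, SIRPA, PVR and, narrowly, CD276 have all CM-MLKL points above all CM-Vector points, and CD24 has them all below.

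SIRPA encodes the receptor that CD47 engages and is mainly a gene of myeloid cells and neurons. It had 97, 114 and 97 counts in the CM-MLKL libraries, against 31, 21 and 42 in the CM-Vector libraries. As levels these were 5.57, 7.68 and 5.31 CPM with CM-MLKL and 1.52, 1.27 and 2.58 CPM with CM-Vector. The groups did not overlap, with the lowest CM-MLKL library 2.06 times the highest CM-Vector library. SIRPA averaged 6.19 ± 1.30 CPM with CM-MLKL and 1.79 ± 0.698 CPM with CM-Vector (SD, n = 3 each). The log2 fold change of 1.79 (SE 0.404, 95% interval 0.89 to 2.68) did not pass the threshold (adjusted p = 0.125, edgeR). The call was gained when CM-Vector replicate 1 was left out (adjusted p = 0.0456 in edgeR), under DESeq2 (adjusted p = 0.00477) and in 5 of 15 settings in all. SIRPA shares part of its span (chr20:1894167-1940592, plus strand) with an annotated gene on the opposite strand, AL117335.1, and the reads carry no strand.

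Macrophages were part of the co-culture that made the medium, so their markers were counted beside SIRPA. Of 20 macrophage markers, 5 (PTPRC, MRC1, C1QA, C1QC and VSIG4) had no count in any library and 16 were under 1 CPM in all 6. The summed level of the 20 was 22.1 to 26.5 CPM with CM-MLKL and 15.2 to 19.5 CPM with CM-Vector. The highest of them was LAPTM5, a lysosomal protein of blood cells, at 17.0 ± 1.30 CPM with CM-MLKL and 8.60 ± 1.40 CPM with CM-Vector (SD, n = 3 each; log2 fold change 0.98, adjusted p = 0.293, edgeR). Leaving out CM-Vector replicate 1 brought LAPTM5 past the threshold (adjusted p = 0.0401 in edgeR). CD14, the monocyte lipopolysaccharide co-receptor, ran the other way, at 2.43 ± 0.524 CPM with CM-MLKL and 4.47 ± 0.829 CPM with CM-Vector (SD, n = 3 each; log2 fold change -0.88, adjusted p = 0.727, edgeR). PTPRC, which encodes the pan-leukocyte antigen CD45, was at 0 in all 6 libraries. Of the 20 markers edgeR tested 4, of which 2 had log2 fold changes above 0 and 2 below. DESeq2 tested 9, of which 7 were above 0 and 2 below, with a median of 0.98 and 0 called. Over all genes the DESeq2 median was -0.0502, with 0.793% called higher and 0.339% lower. A gene with 0 counts may still have had up to 3 by counting error, which is 0.168 to 0.189 CPM depending on the library. Whether the summed markers had a part in the SIRPA difference was not tested.

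CD24, the other 'don't eat me' gene of the list, was lower with CM-MLKL in every library. It stood at 17.7, 16.7 and 19.1 CPM with CM-MLKL, against 26.9, 28.5 and 29.03 CPM with CM-Vector. The spread within each group was small beside the gap between them. CD24 averaged 17.8 ± 1.18 CPM with CM-MLKL and 28.1 ± 1.10 CPM with CM-Vector (SD, n = 3 each), and its log2 fold change was -0.66 (SE 0.242, 95% interval -1.19 to -0.12). It did not pass the threshold (adjusted p = 0.561, edgeR) in that or any other of the 15 settings, over which the log2 fold change lay between -0.71 and -0.61. CD24 (chr6:106969831-106975627, minus strand) has near-identical processed pseudogenes, and its counts depend on how reads that match several copies were treated. Its receptor gene SIGLEC10 had 0 counts with CM-MLKL and 1, 2 and 0 counts with CM-Vector.

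The PD-1 ligands were near the limit of measurement. CD274 had 41, 15 and 49 counts with CM-MLKL, against 64, 21 and 18 with CM-Vector. That is 2.36, 1.01 and 2.68 CPM with CM-MLKL and 3.14, 1.27 and 1.11 CPM with CM-Vector. The groups overlapped, and the highest and lowest libraries within a group differed more than the groups did. Its log2 fold change was 0.13 (SE 0.543, 95% interval -1.07 to 1.33, adjusted p = 0.999, edgeR), so neither a doubling nor a halving can be set aside at this depth. Without CM-Vector replicate 1, the highest of the 6, it was 0.80 (95% interval -0.23 to 1.83, adjusted p = 0.468, edgeR), and it turned below 0 without CM-Vector replicate 2 or 3 or without CM-MLKL replicate 3. PDCD1LG2 had 7, 5 and 21 counts with CM-MLKL, against 42, 21 and 4 with CM-Vector. These libraries also overlapped, with the CM-Vector libraries spread over 8.37-fold. Its log2 fold change was -0.91 (SE 0.731, 95% interval -2.53 to 0.71, adjusted p = 0.999, edgeR), and -0.22 without CM-Vector replicate 1. The 2 genes lie side by side on chromosome 9, both on the plus strand, with 40003 bases between CD274 (chr9:5450503-5470566) and PDCD1LG2 (chr9:5510570-5571254). PDCD1, the gene of their receptor PD-1, had 2, 2 and 3 counts with CM-MLKL and 4, 0 and 0 with CM-Vector.

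PVR and NECTIN2, the ligands shared by TIGIT and CD226, are neighbours on chromosome 19 and are given in turn; the difference between their fold changes was not tested. PVR stood at 147, 195 and 147 CPM with CM-MLKL, against 96.9, 56.9 and 59.4 CPM with CM-Vector. All CM-MLKL libraries were higher, and CM-Vector replicate 1 was the nearest of its group to them. PVR averaged 163 ± 27.7 CPM with CM-MLKL and 71.1 ± 22.4 CPM with CM-Vector (SD, n = 3 each), with a log2 fold change of 1.20 (SE 0.279, 95% interval 0.58 to 1.81, adjusted p = 0.137, edgeR). Without CM-Vector replicate 1 it was 1.52 and passed (adjusted p = 0.00978, edgeR), as it did with DESeq2 (adjusted p = 0.0109), and in 4 of 15 settings in all. PVR (chr19:44643798-44663583, plus strand) overlaps CEACAM19 on its own strand and AC243964.2 and MIR4531 on the other.

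NECTIN2 varied widely within both groups. It stood at 181, 306 and 164 CPM with CM-MLKL, against 122, 236 and 284 CPM with CM-Vector. The groups overlapped over most of their range, with CM-MLKL replicate 2 highest and CM-Vector replicate 1 lowest. The means were 217 ± 77.5 CPM with CM-MLKL and 214 ± 83.1 CPM with CM-Vector (SD, n = 3 each). The log2 fold change of 0.0202 (SE 0.351, 95% interval -0.76 to 0.80, adjusted p = 0.999, edgeR) had no stable sign, and was -0.23 without CM-Vector replicate 1 and -0.31 without CM-MLKL replicate 2. NECTIN2 (chr19:44846175-44889228, plus strand) begins 182591 bases beyond the end of PVR and overlaps AC011481.2 on the opposite strand. Their receptor gene TIGIT had 2 counts in 1 CM-Vector library and 0 in the other 5.

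CD276 had 201, 357 and 188 CPM with CM-MLKL, against 109, 162 and 187 CPM with CM-Vector. The groups were apart only by the small step between the lowest CM-MLKL library (187.9 CPM) and the highest CM-Vector library (187.1 CPM). It averaged 249 ± 94.0 CPM with CM-MLKL and 153 ± 40.0 CPM with CM-Vector (SD, n = 3 each), with a log2 fold change of 0.70 (SE 0.316, 95% interval 0.0022 to 1.40, adjusted p = 0.797, edgeR). It passed in no setting, and the log2 fold change was 0.35 without CM-MLKL replicate 2, its highest library. CD276 spans chr15:73683966-73714518 on the plus strand.

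LGALS9 had 2, 4 and 7 counts with CM-MLKL and 1, 5 and 1 counts with CM-Vector, which left it out of the edgeR test. At these counts no difference was detectable. It lies on chr17:27629798-27649560 (plus strand), overlaps AC015688.4 on its own strand and has close paralogs.

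**Figure D2:**
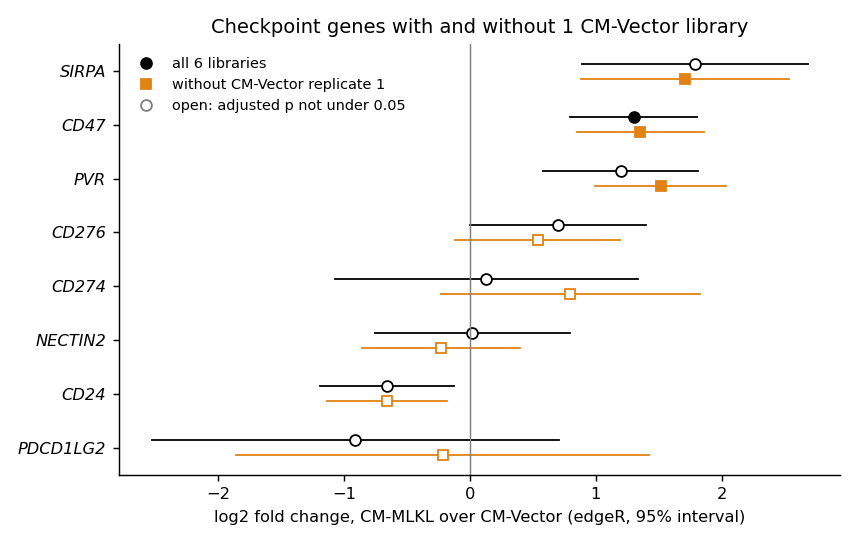
Log2 fold change of CM-MLKL over CM-Vector for the 8 checkpoint genes tested, with 95% intervals from edgeR, for all 6 libraries (circles) and without CM-Vector replicate 1 (squares). Filled marks have an adjusted p under 0.05: CD47 alone with all libraries, and CD47, SIRPA and PVR without that library.

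Of the 8 members that passed the filter on low counts, 1 was called higher and 0 lower. Over all genes tested, 0.406% were called higher and 0.107% lower. At an unadjusted p under 0.05, 4 members were higher and 1 was lower, against 874 of 14046 genes in either direction. With DESeq2 3 members were called higher (CD47, SIRPA and PVR) and 0 lower, against 0.793% and 0.339% of the genes it tested. Without CM-Vector replicate 1 the same 3 were called higher and 0 lower by edgeR, against 1.44% and 0.755% of genes. All 3 CM-MLKL libraries lay above all 3 CM-Vector libraries for CD47, SIRPA, PVR and CD276, and below them for CD24. Over all genes tested such separation held for 6.43% in the first direction and 5.5% in the second. The median log2 fold change of the 8 was 0.42, against -0.0434 over all genes tested, and without CM-Vector replicate 1 it was 0.67, against 0.0512.

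Levels of different genes were set side by side only per length, as CPM per kilobase of annotated exon. With CM-MLKL the order was NECTIN2 (57.9 ± 20.7), PVR (46.4 ± 7.88), CD276 (44.8 ± 17.0), CD47 (23.3 ± 3.31), CD24 (5.76 ± 0.381), SIRPA (1.22 ± 0.256), CD274 (0.491 ± 0.216), PDCD1LG2 (0.266 ± 0.191) and LGALS9 (0.0448 ± 0.0236; CPM per kilobase, SD, n = 3). The first 3 overlapped, as did CD274 and PDCD1LG2, and the other neighbours in this order did not. With CM-Vector CD276 (27.6 ± 7.22) stood above PVR (20.2 ± 6.37), and the libraries of both overlapped. CD47 (9.43 ± 0.278) and CD24 (9.08 ± 0.357) were at overlapping levels per kilobase with CM-Vector, whereas with CM-MLKL every library had CD47 above CD24. SIRPA (0.353 ± 0.138) was below CD274 (0.447 ± 0.275) and PDCD1LG2 (0.504 ± 0.384) with CM-Vector, with overlap among the 3. Taking the longest transcript as the length exchanged PVR with CD276 under CM-MLKL and CD274 with PDCD1LG2 under CM-Vector. The 2 phagocytosis ligands and the nectin and B7-H3 genes were thus far above the PD-1 ligands per kilobase in both groups.

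**Figure D3:**
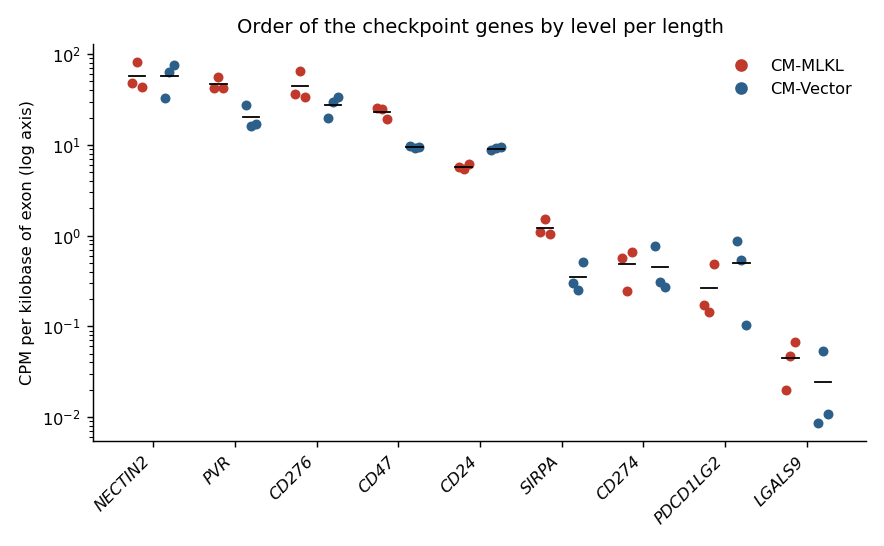
CPM per kilobase of exon for the 9 checkpoint genes on a log axis, ordered by their mean with CM-MLKL; points are libraries and bars are means over 3 libraries. CD47 and CD24 lie at the same height with CM-Vector and apart with CM-MLKL, and the PD-1 ligands and LGALS9 lie under 1 CPM per kilobase in both groups.

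Genes that act with CD47 and CD24 in phagocytosis were described as a list of 25, of which 14 were tested and 0 were called. Over all genes tested, 0.406% were called higher and 0.107% lower, so 0 calls does not set a list of this size apart. The median log2 fold change of the list was 0.21 (0.0274 without CM-Vector replicate 1). STC1, a secreted glycoprotein reported to retain the 'eat me' protein calreticulin inside the cell, had 41.3, 36.1 and 52.0 CPM with CM-MLKL, against 19.7, 12.0 and 13.2 CPM with CM-Vector. The groups did not overlap. Its log2 fold change of 1.53 (SE 0.292) just missed the threshold (adjusted p = 0.0601, edgeR) and was past it under DESeq2 (adjusted p = 0.000218) and when CM-Vector replicate 1 was left out of edgeR (0.00601). THBS1, which encodes the CD47 ligand thrombospondin-1, had 29.4, 36.1 and 24.4 CPM with CM-MLKL, against 37.0, 4.96 and 6.09 CPM with CM-Vector. CM-Vector replicate 1 was thus at the level of the CM-MLKL libraries and the other 2 far below them. The log2 fold change of THBS1 was 0.90 with all libraries (adjusted p = 0.999) and 2.47 without CM-Vector replicate 1 (adjusted p = 0.00187, edgeR). STC1 and THBS1 were the 2 genes of the list called without that library, both higher. Over all genes tested in that setting, 1.44% were called higher and 0.755% lower. CALR, the calreticulin gene (1305 ± 129 CPM with CM-MLKL and 1072 ± 386 CPM with CM-Vector, SD, n = 3 each), had a log2 fold change of 0.28 (adjusted p = 0.999, edgeR) and of 0.0450 without CM-Vector replicate 1. B2M, the light chain of MHC class I and itself an anti-phagocytic signal, had one of 0.0529 (adjusted p = 0.999, edgeR). QPCTL, the glutaminyl cyclase that modifies the SIRPα-binding end of CD47, had one of 0.0548 (adjusted p = 0.999) that turned to -0.35 without CM-Vector replicate 1 (adjusted p = 0.633), and MERTK, an engulfment receptor, one of -0.67 (adjusted p = 0.813, edgeR). The SIRP-family genes SIRPB1, SIRPB2 and SIRPG had at most 3 counts in any library.

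**Figure D4:**
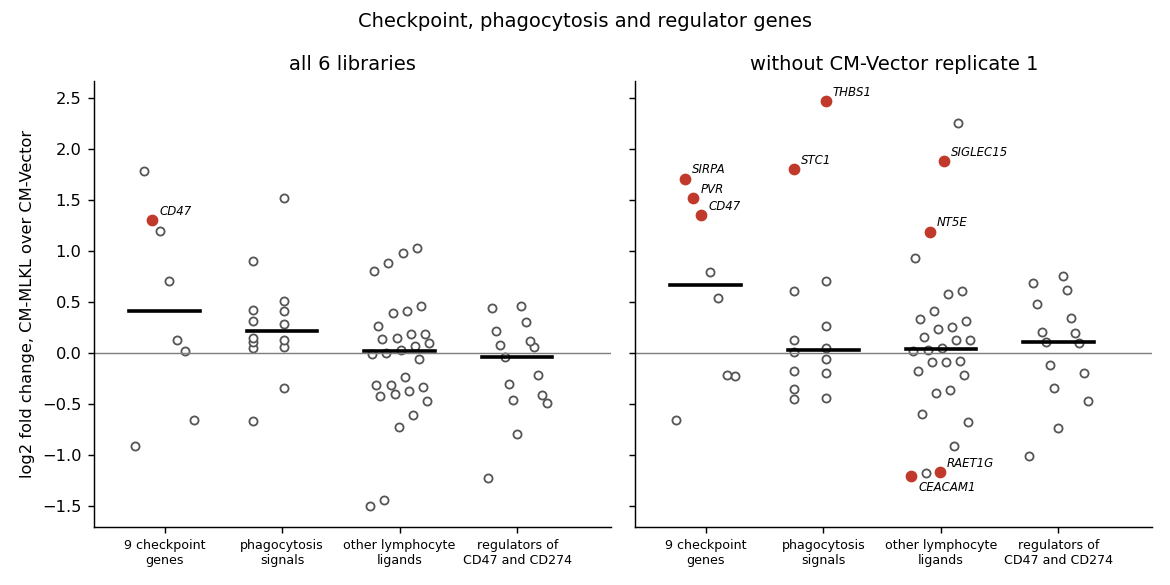
Log2 fold change of CM-MLKL over CM-Vector for the tested genes of 4 lists, with all 6 libraries (left) and without CM-Vector replicate 1 (right). Points are genes, bars are list medians and filled points have an adjusted p under 0.05 (edgeR): CD47 alone on the left, and CD47, SIRPA, PVR, STC1, THBS1, SIGLEC15, NT5E, CEACAM1 and RAET1G on the right.

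A further list of 40 ligands and enzymes that act on T and NK cells had 30 tested, 0 called and a median log2 fold change of 0.0168. The share called over all genes tested was 0.406% higher and 0.107% lower. CEACAM1, an inhibitory adhesion molecule, had 6.90, 6.74 and 7.61 CPM with CM-MLKL, against 24.4, 16.9 and 16.5 CPM with CM-Vector. It was lower in all 3 CM-MLKL libraries, with a log2 fold change at -1.44 in edgeR (SE 0.292, adjusted p = 0.0783), and was called lower under DESeq2 (adjusted p = 0.00178) and when CM-Vector replicate 1 was left out of edgeR (0.0223). NECTIN1, a cell adhesion relative of PVR, averaged 56.0 ± 20.7 CPM with CM-MLKL and 27.4 ± 4.87 CPM with CM-Vector (SD, n = 3 each; log2 fold change 1.03, adjusted p = 0.344, edgeR). NT5E, the CD73 ecto-enzyme that makes adenosine, averaged 290 ± 77.1 CPM with CM-MLKL and 157 ± 48.5 CPM with CM-Vector (SD, n = 3 each; log2 fold change 0.88, adjusted p = 0.454, edgeR) and passed without CM-Vector replicate 1 (0.0380). ICOSLG, the ligand of ICOS, had a log2 fold change of -1.51 (adjusted p = 0.461, edgeR). The most abundant genes of the list, LGALS1 (galectin-1) and HLA-E, had log2 fold changes of 0.14 and 0.26 (adjusted p = 0.999 for each, edgeR), and that of LGALS1 turned to -0.0919 without CM-Vector replicate 1 (adjusted p = 0.879). Without CM-Vector replicate 1, 2 of the list were called higher (NT5E and SIGLEC15, a sialic acid-binding lectin, log2 fold change 1.88). In the same setting 2 were called lower (CEACAM1 and RAET1G, an NKG2D ligand, log2 fold change -1.17). That setting called 1.44% of all genes tested higher and 0.755% lower. The costimulatory genes CD80 and CD86 had 1 count between them over all libraries.

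Among 15 genes known to regulate CD47 or CD274, all were tested, and 0 were called with or without CM-Vector replicate 1. Over all genes tested, 0.406% were called higher and 0.107% lower, and without that library 1.44% and 0.755%. The median log2 fold change of the 15 was -0.0378, which turned to 0.11 without CM-Vector replicate 1. IL6R, the interleukin-6 receptor, had 5.63, 7.14 and 6.46 CPM with CM-MLKL, against 18.7, 10.03 and 16.3 CPM with CM-Vector (log2 fold change -1.23, adjusted p = 0.234, edgeR). EGFR, the epidermal growth factor receptor, had one of -0.79 (adjusted p = 0.869), and its 3 CM-Vector libraries held 208, 71.7 and 82.2 CPM. Without CM-Vector replicate 1, the highest, it was -0.11 (adjusted p = 0.868, edgeR). IRF1, the interferon-induced factor that acts on CD274, had a log2 fold change of 0.46 (adjusted p = 0.944), JAK1 one of 0.44 (0.997; 0.76 without CM-Vector replicate 1, adjusted p = 0.114) and RELA, an NF-kB subunit, one of 0.31 (0.999, edgeR). MYC and HIF1A, both reported to act on CD47, had log2 fold changes of -0.46 and 0.0770 (adjusted p = 0.999 for each, edgeR), which were -0.73 and 0.20 without CM-Vector replicate 1.

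The genes whose log2 CPM ran most like that of CD47 over the 6 libraries, among 10055 genes averaging at least 5 CPM, were WDR1 (Pearson's r = 0.992), TUBA4A (0.989), ARHGAP22, WEE1 and HBEGF (each 0.987). The 6 libraries form the 2 groups compared, so any gene with tight groups scores high, and 83 genes had r over 0.95. WDR1, an actin-disassembly factor, averaged 375 ± 6.48 CPM with CM-MLKL and 320 ± 3.11 CPM with CM-Vector, and TUBA4A, a tubulin, 147 ± 11.1 CPM with CM-MLKL and 24.6 ± 2.10 CPM with CM-Vector (SD, n = 3 each). Of the 5, TUBA4A and ARHGAP22 were called higher (log2 fold changes 2.57 and 2.17, adjusted p = 0.00194 and 0.00661, edgeR). The same fit called 0.406% of all genes tested higher and 0.107% lower. Because the 5 were picked for following CD47 over these same libraries, their calls are no separate result. HBEGF, an EGF-family ligand, had a log2 fold change of 1.17 (adjusted p = 0.0984), WEE1, a mitotic kinase, one of 0.59 (0.611) and WDR1 one of 0.23 (0.999, edgeR).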

How the data were processed

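RNA from 6 cultures of wild-type PANC-1 cells was sequenced, 3 per group; the study's methods call them independent experiments. The authors enriched mRNA on oligo(dT) beads, prepared unstranded libraries with a NEBNext Ultra kit, filtered reads with fastp and assembled them with StringTie. Aligner, genome build and counting tool: not given in the sources used here. Raw counts per gene were deposited by the authors. Of 58735 names, 58708 match GENCODE 29; the other 27 are dates made by a spreadsheet and hold 0.155% of counts.

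Genes were filtered by filterByExpr (minimum count 10, total 15), scaled by TMM and tested with edgeR 4.0.16 in R 4.3.3, two-sided, with group as the only term. The study's methods name DESeq2 and state no model terms. The standard error is the log2 fold change over the square root of F. Alternatives used DESeq2 1.42.0, limma-voom 3.58.1, other scalings and filters, GC and length offsets, a replicate block and each library left out. The edgeR, DESeq2, limma-voom, block and offset fits were tested on simulated data with 200 changed genes. All members are named, with, from each other list, called genes, up to 4 more by adjusted p and up to 2 by level, and the 5 genes most like CD47. SIRPB1, SIRPB2, SIRPG, SIGLEC10, PDCD1, TIGIT, CD80, CD86, SIGLEC15, RAET1G, RELA, MYC, HIF1A, LAPTM5, CD14, EPCAM and VIM were added after their values were seen. Members and lists were chosen with earlier results of these data known.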

Additional observations from a re-analysis of the deposited data

How the results depend on the processing

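CD47 kept its direction in all 15 settings. Its log2 fold change was 1.35 with GC and length offsets (adjusted p = 0.0690, edgeR), and 1.25 to 1.42 with 1 library left out, where the call was kept only without CM-Vector replicate 1. Members called higher numbered 3 with DESeq2 and with no filter on low counts, and 0 to 3 with 1 library left out. With GC and length offsets the 1 called was SIRPA. Settings with 3 members called also called more of all genes than the edgeR test used above, as counted below. No member was called lower in any setting. The sign turned for CD274 (-0.125 to 0.80) and NECTIN2 (-0.308 to 0.28 with 1 library left out, and -0.00079 with at least 5 CPM in 3 libraries), both with intervals that include 0. CD274 and PDCD1LG2 did not enter that last fit. LGALS9 entered only the fits with DESeq2 and with no filter on low counts, so depth limits what can be said of these 3. The causes were not tested.

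Replicate numbers showed no clear pairing of the samples. Deviations of same-numbered libraries from their group means correlated at 0.171, 0.168 and -0.305, and those of differently numbered libraries at -0.31 to 0.357. With 3 libraries per group these values cannot exclude a pairing. With the replicate number as a block, 3 members were called higher (CD47, SIRPA and PVR) and 0 lower, and over all genes 112 higher and 43 lower, against 57 and 15 without the block. All genes called higher and lower numbered 138 and 59 of 17393 tested with DESeq2, and 149 and 100 of 26578 with no filter. They numbered 117 and 41 of 14046 with GC and length offsets. With 1 library left out they were 14 to 206 and 4 to 108, of 14303 to 14526 tested.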

Other observations

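Receptors of these ligands on lymphocytes were nearly absent, and of 17 listed only TNFRSF9 (4-1BB) had enough counts for the edgeR test. DESeq2 tested 5, of which 1 had a log2 fold change above 0 and 4 below. Of these, 0 were called at an adjusted p under 0.05 and 1 had an unadjusted p under 0.05. DESeq2 called 0.793% of the genes it tested higher and 0.339% lower. TNFRSF9 had 8.33, 7.01 and 10.5 CPM with CM-MLKL, against 22.0, 5.14 and 3.20 CPM with CM-Vector. Its log2 fold change was -0.23 with all libraries (adjusted p = 0.999, edgeR) and 1.08 without CM-Vector replicate 1 (adjusted p = 0.122, edgeR). LAG3, named after its values were seen, had 0, 0 and 1 counts with CM-MLKL and 1, 16 and 9 counts with CM-Vector. HAVCR2, the gene of TIM-3 and also named after its values were seen, ran the other way. It had 8, 1 and 5 counts with CM-MLKL and 3, 0 and 0 counts with CM-Vector. Of 10 T and NK cell markers, CD3G, CD2 and NKG7 had no count in any library, and the 10 summed to 1.49 to 3.01 CPM with CM-MLKL and 1.66 to 2.72 CPM with CM-Vector.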
